A study of Mus musculus with 21 samples.

Results

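Scavenger receptors were followed through 7 populations of sorted mouse monocytes and macrophages, as the transcripts of 6 genes: Marco, Msr1, Cd36, Cd68, Scarf1 and Cd163. The genes were a given list of names, and their members on the array were the probe sets annotated to one of these symbols alone, 12 of 45101 probe sets and 6 of 18194 genes. All 6 genes passed the filter on low values and were among the 12155 genes tested. Marco had 2 probe sets, Msr1 had 4 and Cd36 had 3, while Cd68, Scarf1 and Cd163 had 1 each.

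All mice were female C57BL/6 of 7 to 8 weeks, and each population was measured on 3 Affymetrix arrays that the labels call biological replicates. Mice that had received 20000000 particles of zymosan, a preparation of yeast cell wall, into the peritoneal cavity gave 5 groups by lavage. These were monocytes of 4 h (Ly-6B+ Ly-6G-), monocyte/macrophages of 18 h (Ly-6B+/low Ly-6G-), macrophages of 72 h (F4/80+ CD11b+), and at 168 h a Ly-6B+ group (F4/80 med-high) and a Ly-6B- group (F4/80 high). Naive mice gave resident peritoneal macrophages (F4/80 high CD11b high) and Ly-6B+ Ly-6G- monocytes flushed from bone marrow. No treatment is given for the naive mice. The sort gates changed along with time, so that a difference between times and a difference between gates cannot be told apart. The labels do not say whether a replicate was 1 mouse or a pool. Values are MAS5 signals, which are linear brightness values in arbitrary units, comparable between arrays for 1 probe set but not between probe sets.

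Scavenger receptors are membrane proteins of phagocytes that bind modified lipoproteins, microbial surfaces and dying cells, and they are sorted into lettered classes by structure. Class A receptors such as MSR1 and MARCO are trimers with a collagen-like stalk, the class B receptor CD36 takes up oxidised lipid and long-chain fatty acids, and the class D protein CD68 lies mostly in endosomes and lysosomes. The class F receptor SCARF1 carries EGF-like repeats, and the class I receptor CD163 takes up complexes of haemoglobin and haptoglobin. In the peritoneal cavity such receptors are part of how macrophages clear particles and dead neutrophils while inflammation subsides.

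RefSeq's promoter table (GRCm38.p6) held 4 of the 6 genes. The 250 bases before the listed start are shown for Marco and Cd36, the pair whose signals ran most alike, and for Cd68, whose signal was the least like that of the others. Capitals mark the motifs that were found, in the direction of the gene. Marco lies at chr1:120505025-120505274 (minus strand), Cd36 at chr5:17835897-17836146 (minus strand), where the table's start is not the outermost start of the gene, and Cd68 at chr11:69666171-69666420 (minus strand).
Marco: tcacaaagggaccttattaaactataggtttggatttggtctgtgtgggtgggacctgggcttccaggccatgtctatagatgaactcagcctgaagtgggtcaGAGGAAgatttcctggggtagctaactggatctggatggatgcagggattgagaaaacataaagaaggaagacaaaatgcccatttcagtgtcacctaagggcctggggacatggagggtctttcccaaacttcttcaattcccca
Cd36: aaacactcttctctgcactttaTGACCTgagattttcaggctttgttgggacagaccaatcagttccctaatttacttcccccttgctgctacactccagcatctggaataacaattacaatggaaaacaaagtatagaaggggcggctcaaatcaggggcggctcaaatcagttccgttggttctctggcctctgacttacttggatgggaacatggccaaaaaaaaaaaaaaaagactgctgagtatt
Cd68: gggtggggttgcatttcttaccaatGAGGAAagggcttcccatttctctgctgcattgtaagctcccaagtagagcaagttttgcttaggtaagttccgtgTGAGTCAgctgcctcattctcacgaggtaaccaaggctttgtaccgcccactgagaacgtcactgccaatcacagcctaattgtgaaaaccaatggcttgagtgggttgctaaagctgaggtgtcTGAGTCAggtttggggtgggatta

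Motifs of 3 factors known from macrophages were searched on both strands as exact letters. The core site of PU.1 (GAGGAA) occurred once each in Marco and Cd68, at 146 and 225 bases before the start, and 23.3% of 32851 promoters of the same length hold it. The AP-1 site (TGAGTCA) occurred 2 times in Cd68, at 149 and 24 bases before the start, and 4.46% of promoters hold it. The half-site of PPAR (AGGTCA), which the full element holds in 2 direct copies 1 base apart, occurred once in Cd36 on the other strand at 228 bases before the start, and 14% of promoters hold it. The full element was in none of the 4 and is in 0.0335% of promoters. Cd163 held none of these letters in this window. A match is a run of letters only, since binding was not measured in these arrays.

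The median signal of the arrays ran from 67.3 to 93.0 and the mean correlation between arrays within a group from 0.971 to 0.979, taken over genes, which do not count as replicates. Resident macrophage markers were summed over 8 genes. A sum of raw signals follows its brightest probe sets, so it compares groups for the same markers and is no amount of a cell type. At 168 h their sum was 76193 to 88282 in Ly-6B+ and 149024 to 164461 in Ly-6B- cells, and in naive mice it was 155171 to 166053 in resident and 5433 to 6711 in bone marrow cells. Neutrophil transcripts summed to 2836 to 4050 over 6 markers at 4 h and to 52909 to 174043 in bone marrow, although both gates were Ly-6G-. No marker of T and NK cells, mesothelial cells or fibroblasts, or adipocytes was above the table's median of 80.6 in all 3 arrays of any group. Bone marrow replicate 3 with the highest neutrophil sum, 4 h replicate 2 and 72 h replicate 2 stood apart from their groups, and results that rest on them are also given without them. In bulk RNA, fewer cells that express a gene and less RNA per cell cannot be told apart.

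Marco, the class A receptor that binds bacteria and inert particles, had the widest range of the 6 genes on its probe set 1449498_at. Its signal was 5.79, 3.85 and 3.04 in bone marrow monocytes and 195, 735 and 11.1 at 4 h. It was 836, 869 and 1263 at 18 h and 13508.5, 19928 and 19356 at 72 h. At 168 h it was 4277, 8448 and 6865 in Ly-6B+ and 16170.2, 20043 and 20312 in Ly-6B- macrophages, beside 14893, 17016 and 16105 in resident macrophages. The bone marrow arrays lie at the floor, the 4 h arrays disagree with each other, and the 18 h arrays lie close together well below those of 72 h. In the order of mean log2 levels, bone marrow, 4 h, 18 h and Ly-6B+ macrophages of 168 h differed step by step, with 3 called steps of 3.06, 2.62 and 2.67. Resident, 72 h and Ly-6B- cells stood above them without a called step, and the arrays of these 3 groups overlapped.

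The 4 h arrays of Marco had an SD of 2.45 on the log2 scale, against 0.10 to 0.50 in the other groups, and this spread enters the error of every Marco comparison (SE 0.66). As a share of the resident mean, Marco stood at 1.22%, 4.59% and 0.0695% in the 4 h arrays, and the highest and lowest of these are replicates 2 and 3. Of the 8 resident markers in the same arrays, Alox15 stood at 0.391%, 6.55% and 0.464%, and Timd4 at 0.309%, 1.05% and 0.186%. Cxcl13 stood at 2.45%, 6.53% and 2.96%, Gata6 at 1.64%, 3.09% and 1.6%, and Icam2 at 1.58%, 3.3% and 1.97%. The arrays lay closer together for Selp (3.1%, 3.9% and 3.63%), Itgam (27%, 34.2% and 23.2%) and Adgre1 (22.6%, 23.2% and 22.2%). Replicate 2 was the highest of the 3 arrays for Marco and for each of these markers. The part of carried resident cells in the Marco signal of 4 h was not tested. The genes most like Marco over the 21 arrays were Ptgis, the prostacyclin synthase (Pearson r = 0.985), the growth factor receptor gene Fgfr1 (0.984) and Plxdc2 (0.984). In all 278 genes had r above 0.9 with Marco, over arrays that share groups and scaling.

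**Figure D1:**
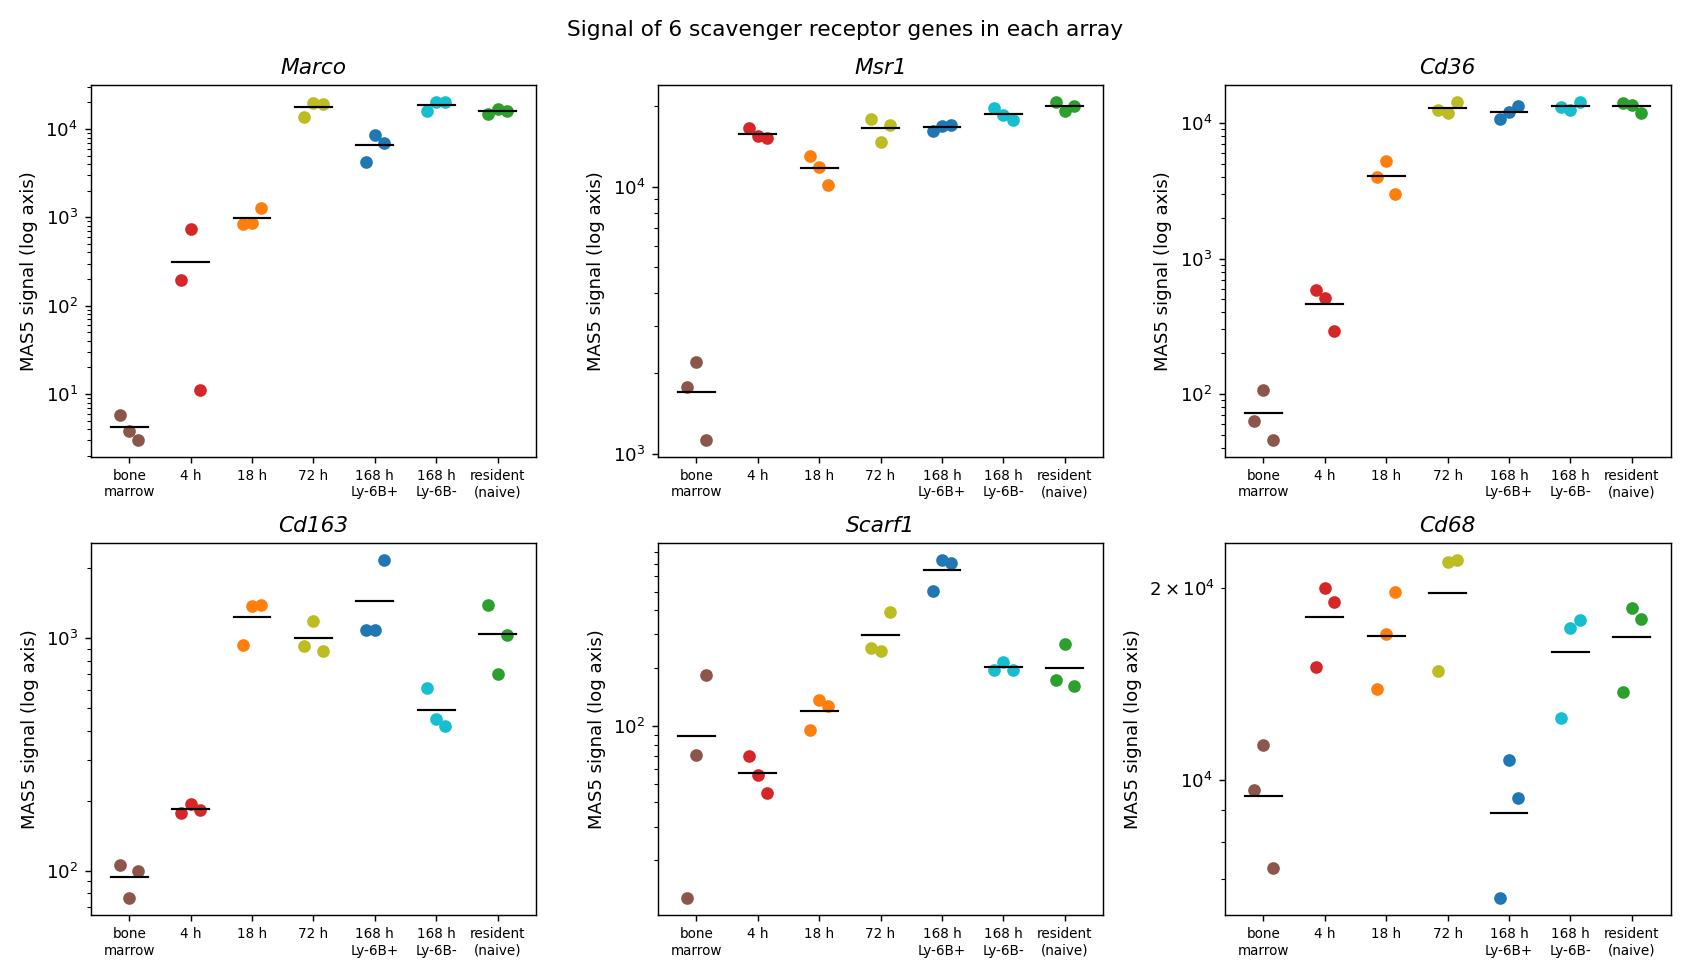
MAS5 signal (log axis) of each of the 6 receptor genes in the 21 arrays, on 1 probe set per gene. Points are arrays, lines are group means, and the groups run from bone marrow through 4, 18, 72 and 168 h after zymosan to naive resident macrophages. Marco and Cd36 climb over several groups, Msr1 is already high at 4 h, Cd163 and Scarf1 stand higher in Ly-6B+ than in Ly-6B- cells of 168 h, and Cd68 is lowest in Ly-6B+ cells of 168 h.

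Msr1 encodes the other class A receptor, which takes up modified low density lipoprotein. On probe set 1448061_at it had 1779.9, 2198 and 1127 in bone marrow monocytes and 16632, 15493 and 15168 at 4 h. It had 13091, 11897 and 10191 at 18 h and 18023, 14681 and 17107 at 72 h. At 168 h it had 16187, 16886 and 17021 in Ly-6B+ and 19773, 18642 and 17851 in Ly-6B- macrophages, beside 20815, 19307 and 20092 in resident macrophages. Every array outside bone marrow lies above every bone marrow array, and the 4 h arrays already overlap those of 72 h. Only the step above bone marrow, to 18 h, was called of the 6 steps in its order of levels (2.82, adjusted p = 1.87e-11). The closest genes over the 21 arrays were Slc11a1, a metal ion transporter of phagosomes (r = 0.985), the cholesterol exporter gene Abca1 (0.976) and Ninj1 (0.976), among 58 genes with r above 0.9.

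Cd36, the class B receptor for oxidised lipid, was followed on probe set 1450883_a_at. Its signal was 62.6, 107 and 45.9 in bone marrow monocytes, 589, 515 and 291 at 4 h, and 3995.5, 5235 and 2982 at 18 h. It was 12563.5, 11806 and 14388 at 72 h. At 168 h it was 10708, 12073 and 13375 in Ly-6B+ and 13082, 12518 and 14367.5 in Ly-6B- macrophages, beside 14184, 13733 and 11959.6 in resident macrophages. The first 4 groups in its order do not overlap with each other, counting Ly-6B+ cells as the fourth, and the highest 4 groups overlap throughout. The called steps were 2.47, 3.11 and 1.59 (adjusted p = 4.32e-05 for the last), and the rest were 0.10 or less. Sdc3, a heparan sulfate proteoglycan, followed Cd36 most closely (r = 0.994), then Cd5l (0.990) and Rab11fip5 (0.989), of 262 genes with r above 0.9. Marco and Cd36 correlated at 0.96 over the 21 arrays, the highest value of the 15 pairs of receptor genes.

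Cd68, the class D protein of late endosomes and a common macrophage marker, had the narrowest range. On probe set 1449164_at it was 9675, 11371 and 7303 in bone marrow monocytes, 15021, 19988 and 19004 at 4 h, and 13881, 16939.7 and 19685 at 18 h. It was 14822, 21956 and 22110.2 at 72 h. At 168 h it was 6550.2, 10765 and 9400.5 in Ly-6B+ and 12519, 17334 and 17801 in Ly-6B- macrophages, beside 13771, 18631 and 17864 in resident macrophages. The Ly-6B+ cells of 168 h overlap with bone marrow monocytes, and every array of these 2 groups lies below every array of the other 5. None of the 6 steps was called, and the step between these levels was 0.75 (adjusted p = 0.00537), under the minimum change of 1. The most similar genes were Rab5c, an early endosome GTPase (r = 0.829), Lgals9, galectin-9 (0.822), and Ctsa, the lysosomal cathepsin A (0.813), and no gene reached 0.9. Scarf1 and Cd68 had the lowest correlation of the 15 pairs, -0.18.

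Scarf1, the class F receptor, had low signals on probe set 1434490_at. It was 12.8, 70.7 and 184 in bone marrow monocytes, 69.7, 55.6 and 44.6 at 4 h, and 95, 137 and 128 at 18 h. It was 253, 247 and 392 at 72 h. At 168 h it was 505, 729.6 and 701 in Ly-6B+ and 196, 216 and 195 in Ly-6B- macrophages, beside 173, 266 and 162 in resident macrophages. The bone marrow arrays span the values of several other groups, and all 3 Ly-6B+ arrays of 168 h lie above all other arrays. None of the 6 steps in its order of levels was called, the largest being the last, between 72 h and Ly-6B+ cells of 168 h (1.09, adjusted p = 0.198). Axl, a receptor kinase for bridged apoptotic cells (r = 0.890), the adhesion molecule gene Jam2 (0.860) and Eps8l1 (0.853) were closest, with no gene above 0.9.

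Cd163, the class I haemoglobin scavenger receptor, was measured by probe set 1419144_at. It had 106, 76.5 and 99.6 in bone marrow monocytes, 177, 193 and 182 at 4 h, and 939.6, 1370.5 and 1389 at 18 h. It had 924, 1187 and 883 at 72 h. At 168 h it had 1087, 1087 and 2169 in Ly-6B+ and 609.5, 450.2 and 421 in Ly-6B- macrophages, beside 1397, 703 and 1036 in resident macrophages. The Ly-6B- arrays lie below those of 18 h, 72 h, Ly-6B+ and resident cells, which overlap with each other, and above those of 4 h and bone marrow. The only called step was that between 4 h and Ly-6B- cells of 168 h (1.34, adjusted p = 0.000149). Cbr2, a carbonyl reductase (r = 0.943), the sialyltransferase gene St6gal1 (0.937) and the folate receptor gene Folr2 (0.934) were most alike, of 19 genes above 0.9.

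Over the 6 genes, 8 of 36 steps between neighbouring levels were called, where 3.62% of such steps were called over all genes tested. All 6 genes differed over the 7 groups in limma's F test, as did 69.7% of genes tested, with F from 9.8 for Cd68 (adjusted p = 0.000113) to 303 for Cd36 (adjusted p = 5.99e-16). A gene was called where its p, adjusted by Benjamini-Hochberg over the 12155 genes, was under 0.05 and its log2 fold change was at least 1 in size. Fold changes are on the scale of log2(signal + 15), which understates the change of genes near the floor. There were 6 main and 4 secondary comparisons, and 18 of the 60 results of the 6 genes were called. Over all 12155 genes tested, the number called ran from 5 for Ly-6B- over resident cells to 2788 for resident macrophages over bone marrow. The share over all genes is given with each comparison below. Comparisons share groups, so their results are not independent.

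**Figure D2:**
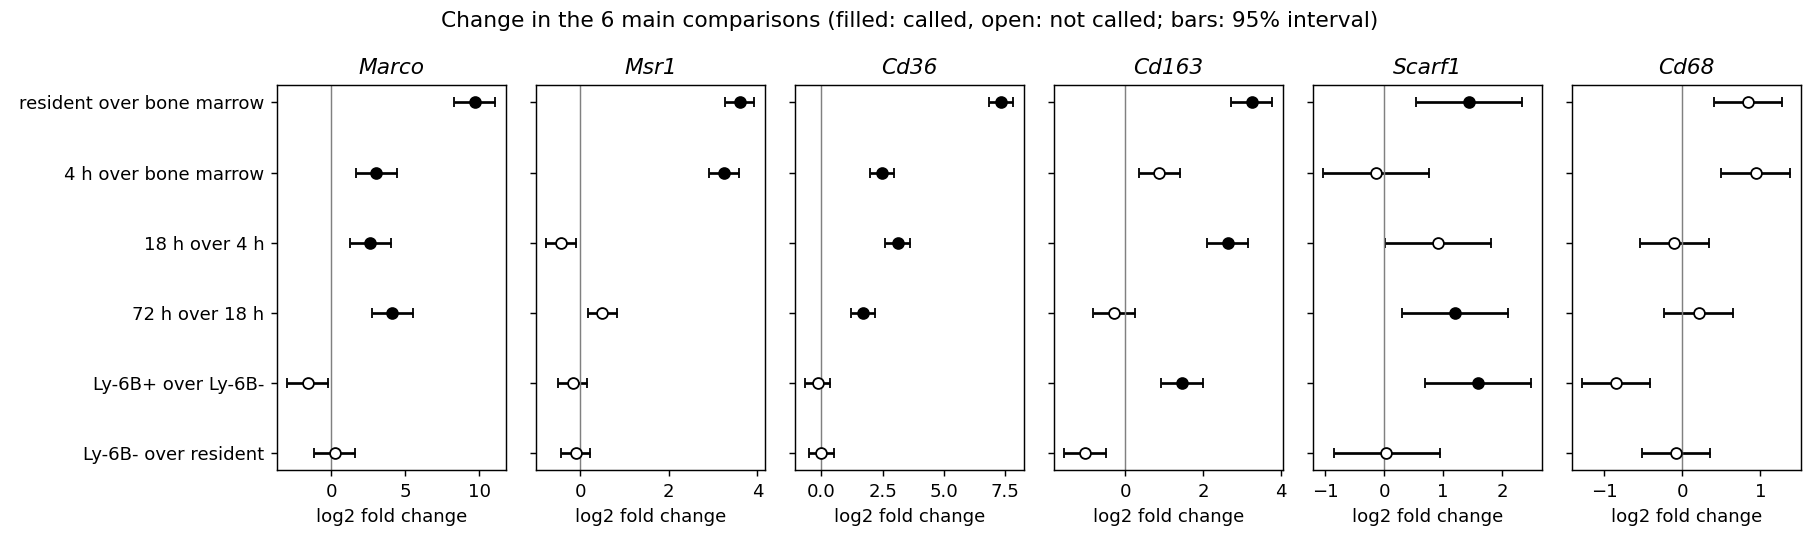
Log2 fold change (horizontal axes, which differ between genes) of the 6 receptor genes in the 6 main comparisons, with 95% intervals from limma. Filled points were called and open points were not. Marco, Msr1, Cd36, Cd163 and Scarf1 have filled points for resident macrophages over bone marrow monocytes, and no gene has one for Ly-6B- cells of 168 h over resident macrophages.

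Resident macrophages were first set against bone marrow monocytes, the groups with no zymosan dose given. Marco, Cd36, Msr1, Cd163 and Scarf1 were higher in resident macrophages, 5 of 6 genes, while 12.8% of the genes tested were called higher and 10.1% lower. Marco averaged 16005 ± 1065 in resident cells and 4.23 ± 1.42 in bone marrow (SD, n = 3 each), a log2 fold change of 9.70 ± 0.66 (SE, adjusted p = 1.50e-10). Cd36 changed by 7.32 ± 0.24 (SE, adjusted p = 1.55e-15), Msr1 by 3.60 ± 0.16 (adjusted p = 1.36e-13) and Cd163 by 3.24 ± 0.26 (adjusted p = 1.45e-09). All resident arrays exceeded all bone marrow arrays for these 4 genes, and each call was kept without bone marrow replicate 3. Scarf1 changed by 1.43 ± 0.43 (adjusted p = 0.00907) although its arrays overlap, and without bone marrow replicate 1, which had a signal of 12.8, the change was 0.69 and not called (adjusted p = 0.08). Cd68 was 0.84 ± 0.21 higher (adjusted p = 0.00241), under the minimum change. The median change was 3.42 over the 6 genes and 0.05 over all genes tested. Neutrophil markers summed to 391 to 441 in resident macrophages, against the 52909 to 174043 of bone marrow. Markers of granulocyte and monocyte progenitors, 4 of 4 measured, summed to 6074.5 to 9245 in resident macrophages and 32134 to 80585 in bone marrow, and to 1040.4 to 1318 at 4 h. All 3 arrays were above 80.6 for only 1 of these markers in resident macrophages, for 4 in bone marrow and for 2 at 4 h. The part of both lists in these differences was not tested.

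The next comparison set the 4 h monocytes of the cavity against those of bone marrow. Msr1, Marco and Cd36 were called higher, 3 of 6 genes, where 7.45% of genes tested were called higher and 14.5% lower. Msr1 averaged 15764.5 ± 769 at 4 h and 1702 ± 539.9 in bone marrow (SD, n = 3 each), a change of 3.25 ± 0.16 (SE, adjusted p = 1.80e-12). Cd36 averaged 465 ± 155 at 4 h and 71.8 ± 31.5 in bone marrow, a change of 2.47 ± 0.24 (adjusted p = 3.24e-08). At 4 h Msr1 stood at 78.5% of its resident mean, Cd36 at 3.50% and Cd163 at 17.6%. Marco changed by 3.06 ± 0.66 (adjusted p = 0.000646), by 1.95 without 4 h replicate 2 and by 4.37 without 4 h replicate 3. Its other probe set, 1458297_s_at, had no such change (-0.07, adjusted p = 0.917), with 2.03, 10.7 and 2.43 at 4 h and 5.63, 6.07 and 5.46 in bone marrow, all under the 15 added before the logarithm.

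Cd68 and Cd163 passed the adjusted p in the same comparison but not the minimum change, at 0.94 ± 0.21 (adjusted p = 0.00085) and 0.88 ± 0.26 (adjusted p = 0.00736), with all 4 h arrays above all bone marrow arrays. Scarf1 changed by -0.14 with a 95% interval of -1.03 to 0.76. The median gene changed by -0.14 at 4 h. With every array set to a common median it changed by 0.22, and Cd68 (1.30) and Cd163 (1.24) were then called. With that scaling 1598 of all genes tested were called higher and 1110 lower, against 905 higher and 1759 lower as deposited.

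Cells of 18 h were then set against those of 4 h. Cd36, Cd163 and Marco were higher at 18 h, 3 of 6 genes, beside 10.9% of genes tested called higher and 4.48% lower. Cd36 averaged 4071 ± 1128 at 18 h and 465 ± 155 at 4 h (SD, n = 3 each), a change of 3.11 ± 0.24 (SE, adjusted p = 3.83e-09). Cd163 averaged 1233 ± 254 at 18 h and 184 ± 7.89 at 4 h, a change of 2.63 ± 0.26 (adjusted p = 8.73e-08), and the 18 h mean was 118% of the resident mean. Marco changed by 2.62 ± 0.66 (adjusted p = 0.0032), by 3.73 without 4 h replicate 2 and by 1.31 without 4 h replicate 3, and its call was kept in each case. Msr1 was lower at 18 h in all 3 arrays (-0.43 ± 0.16, adjusted p = 0.0342), under the minimum change. Cd68 changed by -0.10 ± 0.21 (adjusted p = 0.751) and Scarf1 by 0.91 ± 0.43 (adjusted p = 0.101). The median gene changed by 0.14 as deposited and by -0.16 with a common array median, where 731 genes were higher and 985 lower, against 1320 and 544 as deposited. The sum of resident markers was 24859 to 28360.2 at 18 h and 10936 to 15379 at 4 h, and that of classical monocyte markers was 38718 to 48184 at 18 h and 65716 to 70742 at 4 h. Their part in these differences was not tested.

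Macrophages of 72 h were compared with cells of 18 h. Marco, Cd36 and Scarf1 were called higher at 72 h, 3 of 6 genes, where 8.99% of genes tested were called higher and 3.41% lower. Marco averaged 17597.5 ± 3553 at 72 h and 989 ± 237 at 18 h (SD, n = 3 each), a change of 4.14 ± 0.66 (SE, adjusted p = 6.08e-05). Cd36 averaged 12919 ± 1327 at 72 h and 4071 ± 1128 at 18 h, a change of 1.69 ± 0.24 (adjusted p = 1.32e-05). At 72 h Marco stood at 110% and Cd36 at 97.2% of the resident mean, against 6.18% and 30.6% at 18 h. Over the same step the sum of resident markers was 109406 to 144047 at 72 h and 24859 to 28360.2 at 18 h, and their part in these differences was not tested. Scarf1 changed by 1.2 ± 0.43 (adjusted p = 0.0403), a call that was lost in 12 of 17 alternatives, among them the omission of any 1 array of either group. Msr1 was 0.50 ± 0.16 higher (adjusted p = 0.0193), under the minimum change, and Cd163 (-0.29) and Cd68 (0.21) were not called. The B cell marker sum was 572 to 7870.5 over the 72 h arrays, highest in replicate 2, and without this array and the other 2 that stood apart Marco and Cd36 kept their calls.

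At 168 h the Ly-6B+ macrophages were compared with the Ly-6B- macrophages of that time. Cd163 and Scarf1 were higher in the Ly-6B+ cells, 2 of 6 genes, where 1.49% of genes tested were called higher. Cd163 averaged 1447 ± 625 in Ly-6B+ and 494 ± 101 in Ly-6B- cells (SD, n = 3 each), a change of 1.46 ± 0.26 (SE, adjusted p = 0.00066) that was called in all 17 alternatives. Scarf1 averaged 645 ± 122.5 in Ly-6B+ and 202 ± 12.3 in Ly-6B- cells, a change of 1.59 ± 0.43 (adjusted p = 0.0245). Its call was lost in 6 of 17 alternatives, without any 1 of the Ly-6B- arrays or of Ly-6B+ replicates 2 and 3 and with a pseudocount of 1, and the highest adjusted p was 0.084.

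No receptor gene was called lower in Ly-6B+ cells with limma, where 2.38% of genes tested were, although 2 genes were lower at an unadjusted p under 0.05. Marco averaged 6530 ± 2106 in Ly-6B+ and 18842 ± 2318 in Ly-6B- cells, with every Ly-6B+ array below every Ly-6B- array, and its change of -1.57 ± 0.66 was not called (adjusted p = 0.172). With only the 6 arrays of these groups in the fit, which leaves out the spread at 4 h, the same change was called (adjusted p = 0.00214). It was also called without the 3 arrays that stood apart (adjusted p = 0.0448) and as the mean of both probe sets (-2.02, adjusted p = 0.0102). The second probe set alone changed by -2.47 ± 0.45 (adjusted p = 0.0013), with 127.5, 505.5 and 225.5 in Ly-6B+ and 732, 2198 and 1822 in Ly-6B- cells. Over all alternatives the adjusted p of the main probe set ran from 0.00214 to 0.408. Cd68 was lower in all Ly-6B+ arrays, at 8905 ± 2150.5 against 15885 ± 2924 in Ly-6B- cells, and its change of -0.85 ± 0.21 passed the adjusted p (0.0131) but not the minimum change. Msr1 (-0.17, 95% interval -0.50 to 0.16) and Cd36 (-0.15, -0.65 to 0.35) differed by less than the minimum change.

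Against the resident mean, Ly-6B+ cells held 40.8% of the signal of Marco, 53.1% of Cd68, 83.2% of Msr1, 90.7% of Cd36, 138% of Cd163 and 322% of Scarf1. Ly-6B- cells held 118% of Marco, 94.8% of Cd68, 93.4% of Msr1, 100% of Cd36, 47.2% of Cd163 and 101% of Scarf1. Of these differences from resident cells Scarf1 in Ly-6B+ cells alone was called, and the Ly-6B+ and resident arrays of Cd163 overlap. Among the 8 resident markers, Ly-6B+ cells held 8.71% of Timd4, 11.9% of Cxcl13, 30.8% of Selp and 43.9% of Gata6. They held 64.4% of Adgre1, 75.5% of Itgam, 77.4% of Icam2 and 78.8% of Alox15. Classical monocyte markers, 3 of 5 of them measured, summed to 15703 to 20376 in Ly-6B+, against 1365 to 2727 in Ly-6B- cells. The part of cell make-up in these differences was not tested.

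**Figure D3:**
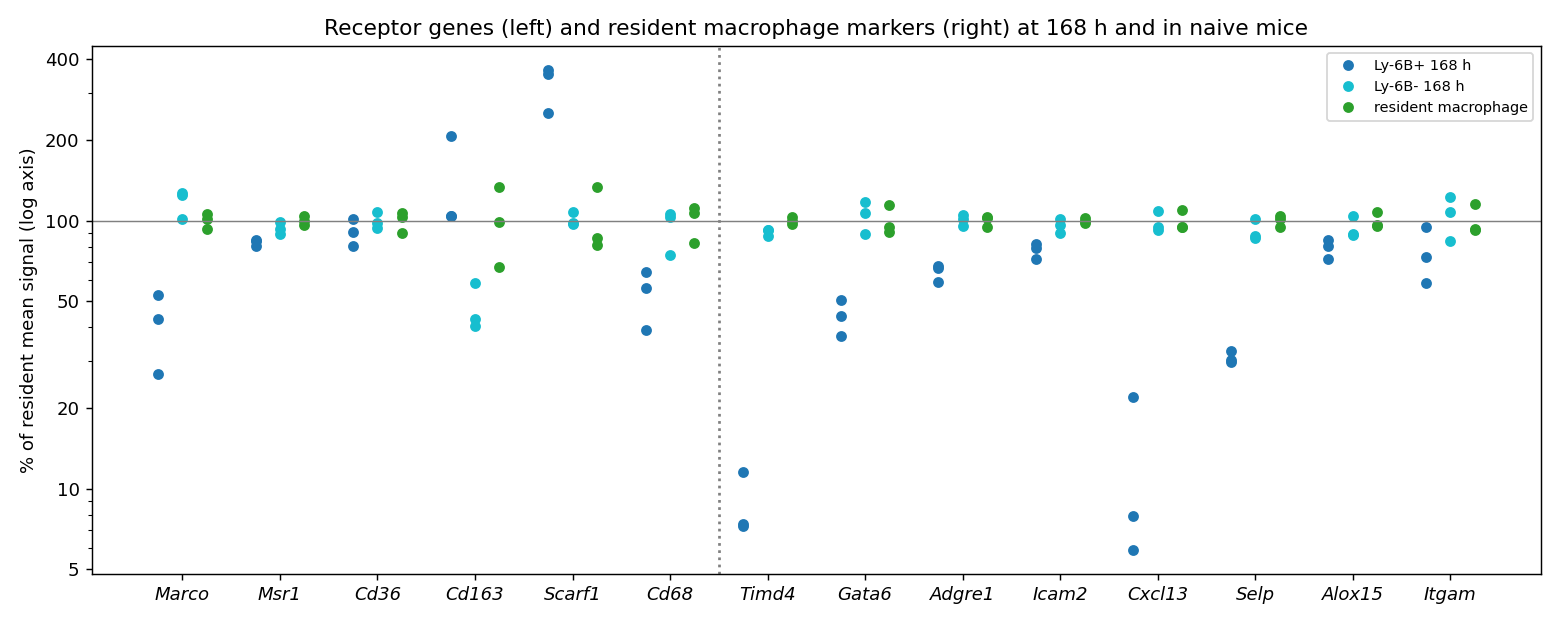
Signal in each array as % of the mean of the 3 resident arrays (log axis), for the 6 receptor genes left of the dotted line and 8 resident macrophage markers right of it. Points are arrays of Ly-6B+ and Ly-6B- macrophages of 168 h and of resident macrophages. Timd4 and Cxcl13 lie lowest in Ly-6B+ cells, Marco and Cd68 lie below 100%, and Scarf1 lies above 200%.

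Ly-6B- macrophages of 168 h were compared with the resident macrophages of naive mice. None of the 6 genes was called with limma, where 0.0411% of genes tested were, and 1 was lower at an unadjusted p under 0.05. That gene was Cd163, at 494 ± 101 in Ly-6B- and 1045.5 ± 347 in resident cells (SD, n = 3 each), with no overlap of the arrays and a change of -1.02 ± 0.26 (SE, unadjusted p = 0.000702, adjusted p = 0.449). The other changes were 0.23 for Marco (95% interval -1.15 to 1.61), -0.10 for Msr1 (-0.43 to 0.23), 0.00 for Cd36 (-0.49 to 0.50), 0.04 for Scarf1 (-0.85 to 0.94) and -0.08 for Cd68 (-0.52 to 0.36). The intervals of Msr1, Cd36, Scarf1 and Cd68 lie inside the minimum change of 1, while that of Marco reaches beyond it on both sides.

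In the secondary comparisons, Ly-6B+ cells of 168 h had Scarf1 higher than resident macrophages (1.63 ± 0.43, SE, adjusted p = 0.0182), 1 of 6 genes called higher, where 1.90% of genes tested were called higher and 2.36% lower. This call was lost in 5 of 17 alternatives. Cd68 was 0.93 lower in these cells than in resident macrophages (-0.93 ± 0.21, adjusted p = 0.00597), under the minimum change, with no overlap of arrays. All 3 Ly-6B+ arrays of Marco were lower than all resident arrays, and its change of -1.34 ± 0.66 was not called (adjusted p = 0.248). It was called on the second probe set (-2.18, adjusted p = 0.00356), as the mean of both (-1.76, adjusted p = 0.0232) and with only the 6 arrays in the fit (adjusted p = 0.00326). The last 2 of these were the only calls of Marco among its 17 alternatives, over which the adjusted p reached 0.512. Against macrophages of 72 h, Cd68 was called lower in Ly-6B+ cells (-1.15 ± 0.21, adjusted p = 0.00172), 1 of 6 genes, where 0.666% of genes tested were called higher and 1.85% lower. That call needed Ly-6B+ replicate 1, without which the change was -0.94. Marco was again lower in all 3 Ly-6B+ arrays but not called (-1.46 ± 0.66, adjusted p = 0.285), and it was called on the second probe set (-2.35, adjusted p = 0.00331), as the mean of both (-1.90, adjusted p = 0.0224) and with only the 6 arrays (adjusted p = 0.00837). Here too the last 2 were its only calls among 17 alternatives, and the adjusted p reached 0.539. Macrophages of 72 h had 0 of 6 genes called against resident macrophages (0.691% of genes tested, and 0 of the 6 at an unadjusted p under 0.05 with limma). Ly-6B- cells had 0 of 6 called against 72 h (0.485% of genes tested), with Cd163 alone at an unadjusted p under 0.05 (-1.0 ± 0.26, adjusted p = 0.088).

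Probe sets of 1 gene differ in which part of the transcript they bind, and Marco, Msr1 and Cd36 had 6 probe sets beside those used above. All 12 passed the filter. On rows of their own the 6 gave 60 results over the 10 comparisons, of which 54 had the same call as the main probe set, and no pair was called in opposite directions. For 4 h over bone marrow the other Msr1 probe sets changed by 3.25, 3.02 and 1.84 and the other Cd36 probe sets by 2.77 and 1.41, all called higher. Msr1 was lower at 18 h than at 4 h on each of them (-0.42, -0.51 and -0.58). Of the 6 results with another call, 5 belonged to Marco. At 4 h over bone marrow and 18 h over 4 h its second probe set was near the floor and not called. In Ly-6B+ cells over Ly-6B-, resident and 72 h cells it was called lower (-2.47, -2.18 and -2.35), at signals of 127.5 to 2198. The sixth was Cd36 at 72 h over 18 h on probe set 1450884_at (0.97, adjusted p = 0.0636).

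**Figure D4:**
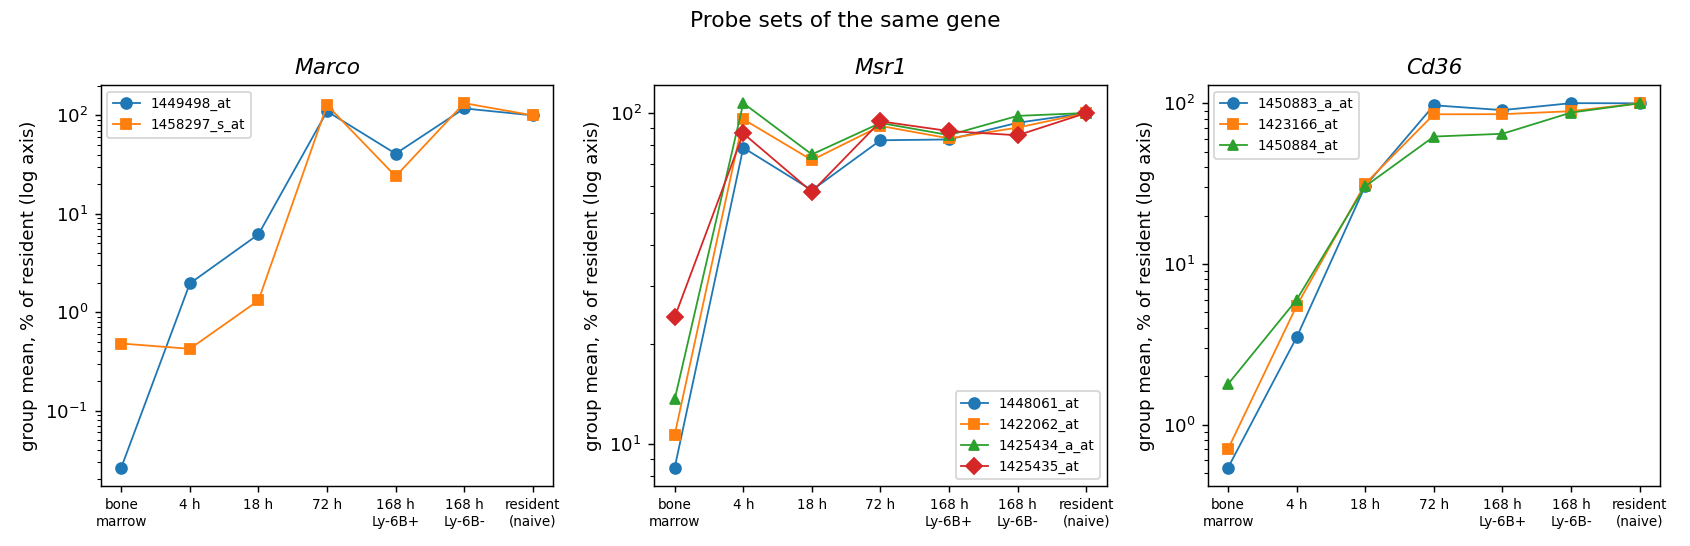
Group mean of each probe set as % of its own resident mean (log axis) for Marco, Msr1 and Cd36 over the 7 groups. Lines join the groups in the order of the axis and are no time course from 168 h on. Those of Msr1 span 8.48% to 24.2% in bone marrow, and those of Cd36 span 62.1% to 97.2% at 72 h. Those of Marco stand apart in bone marrow (0.0264% and 0.481%, both at the floor), at 4 h and 18 h and, at 40.8% and 24.1%, in Ly-6B+ cells.

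Further scavenger receptor and related genes, some of them of the same classes as the 6 receptor genes, were read from a list of 20. Of these, 14 were tested and 6 lay below the filter (Scara3, Scara5, Megf10, Ager, Cd163l1 and Ssc5d). In resident macrophages over bone marrow 9 of the 14 were called higher and 1 lower, with a median change of 2.12, where 12.8% of all genes tested were higher, 10.1% lower and the median change was 0.05. Cd5l, a secreted protein of the CD163 fold, led with 8.56 (25222 ± 1449 in resident and 52.3 ± 9.85 in bone marrow cells), and Scarb1, the receptor for high density lipoprotein, was lower (-1.54). At 4 h over bone marrow 7 were higher and 2 lower, led by Stab1, stabilin-1 (3.82), and Scarf2, a paralogue of Scarf1 (-1.15), but with a common array median 9 were higher and 0 lower. The shares over all genes there were 7.45% higher and 14.5% lower. At 18 h over 4 h 5 were higher, Cd5l by 3.35, and 1 lower, the lipopolysaccharide co-receptor gene Cd14 (-1.24), against 3 and 2 with a common median. Over all genes 10.9% were higher and 4.48% lower, and the median change of 0.11 over the list lay beside 0.14 over all genes. At 72 h over 18 h 4 were higher, Scarf2 by 3.09, and 2 lower, Mrc1, the mannose receptor, by a change of -2.48, beside 8.99% higher and 3.41% lower over all genes.

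At 168 h 1 of the 14 was higher in Ly-6B+ cells and 1 lower, where 1.49% of all genes tested were higher and 2.38% lower. Mrc1 had 3663, 4042 and 6359 in Ly-6B+ and 1010.3, 1054 and 1157 in Ly-6B- cells (2.07, adjusted p = 1.09e-06). Colec12, a class A receptor with a lectin domain, had 213, 131.5 and 136.5 in Ly-6B+ and 602, 533 and 598 in Ly-6B- cells (-1.79, adjusted p = 5.63e-06). Both groups are apart in all arrays for each gene. Mrc1 lies on the side of Cd163 and Scarf1, and Colec12 on the side of Marco and Cd68. None of the 14 was called in Ly-6B- cells over resident macrophages, where 0.0411% of all genes tested were. Mrc1 (-0.72) and Colec12 (-0.44) were at an unadjusted p under 0.05 in limma.

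**Figure D5:**
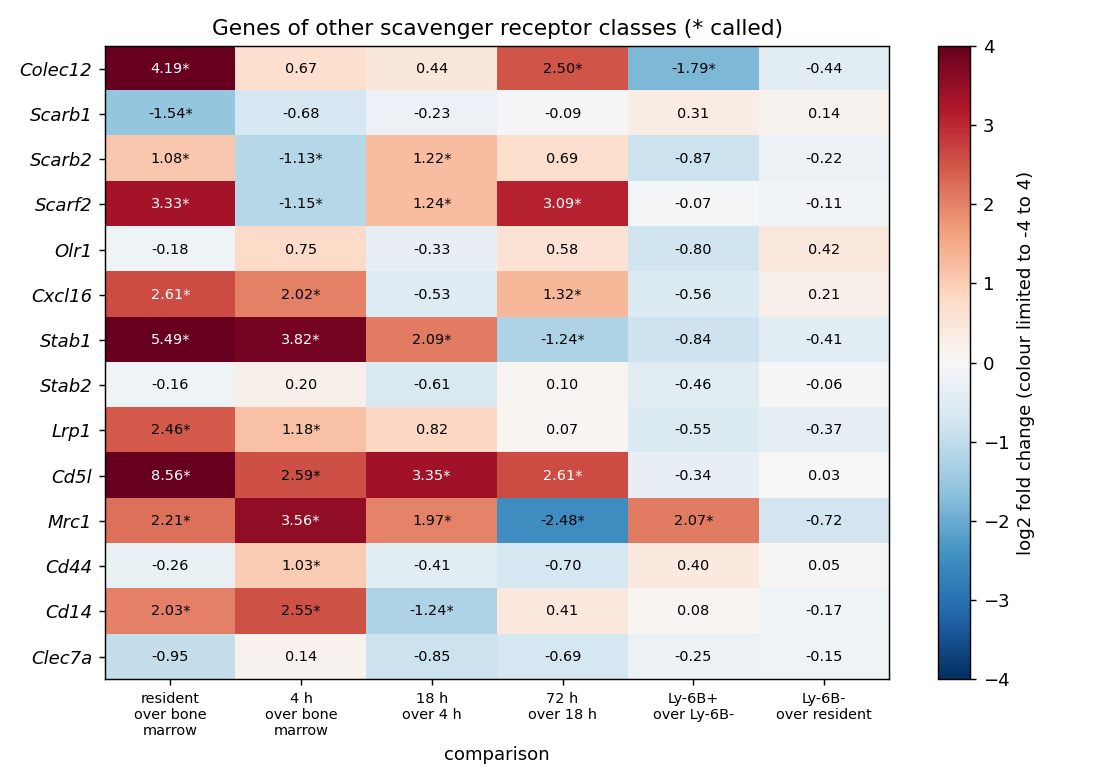
Log2 fold change of the 14 further scavenger receptor and related genes that were tested (rows) in the 6 main comparisons (columns), with a star where called. Colour runs from blue for lower to red for higher and is limited to 4 in either direction. Stars are frequent in the first 4 columns, 2 stand under Ly-6B+ over Ly-6B- (Mrc1 and Colec12), and none under Ly-6B- over resident.

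Partners and regulators of the receptors were read from a list of 18, with 15 tested, Gulp1 below the filter, and the others not analysed here. In resident macrophages over bone marrow 8 of the 15 were higher and 1 lower, beside 12.8% and 10.1% of all genes tested. Fabp4, the fatty acid binding protein of adipocytes and macrophages, changed by 8.06, and Pparg, a nuclear receptor known to drive Cd36 and Fabp4, by -1.68 at signals of 6.31 ± 5.37 in resident and 52.5 ± 11.1 in bone marrow cells (SD, n = 3 each). At 4 h over bone marrow 7 were higher and none lower, Maf by 4.45 (11700.4 ± 2644 at 4 h and 515 ± 84.9 in bone marrow), and 11 were higher with a common median, beside 7.45% higher and 14.5% lower over all genes. At 18 h over 4 h 2 were higher, Pparg by 1.33, and 2 lower, Tlr2 by a change of -1.50, but none higher and 3 lower with a common median. The 2 higher as deposited lie near the 10.9% of all genes tested that were called higher, and 4.48% of all genes tested were called lower. Of the 7 groups, Pparg had its highest mean at 18 h, 147 ± 45.7.

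At 72 h over 18 h Fabp4 changed by 5.33, with 13108, 12471 and 18072 at 72 h and 336, 331 and 357 at 18 h. Pparg changed by -1.60. Of the 15, 2 were higher, near the 8.99% of all genes tested, and 2 were lower, where 3.41% of all genes tested were. Cd36 had changed by 3.11 between 4 h and 18 h, over which Fabp4 was not called. At 168 h Fabp4 was the only one called, lower in Ly-6B+ cells (-1.86), with 4119, 4980.2 and 3183 in Ly-6B+ and 10750.4, 16072 and 18339 in Ly-6B- cells. Over all genes tested, 1.49% were called higher in Ly-6B+ cells and 2.38% lower. None of the 15 was called in Ly-6B- cells over resident macrophages with limma, where 0.0411% of all genes tested were, and 0 had an unadjusted p under 0.05.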

How the data were processed

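RNA of sorted cells was hybridised to Affymetrix arrays, 21 samples in 7 groups of 3. Per the labels, labelling started from 100 ng of TriZol RNA and took 2 cycles. The authors deposited linear MAS5 intensity (signal) values, produced by Affymetrix Expression Console 1.2 per the submitters' processing notes. Every array has a 2% trimmed mean of 500.0 in the deposited table. Detection calls were not used here. Of 45101 probe sets, 34958 had 1 symbol, 932 several and 9211 none in the annotation table, and the last 2 kinds were left out.

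Signals were taken as log2(signal + 15), where 15 is the 20th percentile of the table, rounded. Each gene was represented by the probe set with the highest mean log2 value, and genes above 80.6, the table's median, in at least 3 arrays were tested. Contrasts came from 1 limma fit (version 3.58.1, R 4.3.3) over 21 arrays, by lmFit and trended eBayes with 14 residual degrees of freedom and 2-sided tests. Steps between neighbouring levels came from the 21 pairs of groups. The number of arrays limits the precision. p-values measure the spread between these samples, which may be technical in part. The fit was tested on simulated data.

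The members, lists, markers and alternatives were chosen with earlier results of these data known. Genes named beside the members were the 3 most correlated with each, and in each list the largest called change in each direction and the highest and lowest mean, which are not given because signals of different probe sets are not comparable. Numbers counted as pairing arrays if the residuals of all 3 same-numbered pairs correlated above 0.1, which held for Ly-6B+ against Ly-6B- at 168 h alone (0.30, 0.28 and 0.17).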

Additional observations from a re-analysis of the deposited data

How the results depend on the processing

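Results were recomputed with other pseudocounts (1 and 60), other scalings (a common array median, quantile normalization), the filter dropped or set at the upper quartile, probe sets averaged per gene, untrended eBayes, the replicate block, 3 arrays left out, only the 6 arrays compared, and each array left out in turn. Over 60 results of the receptor genes and 17 alternatives each, 977 of 1020 kept their side of the threshold, 27 lost a call, 16 gained one and 0 reversed, and 13 of 18 calls were kept in all. The calls lost were those of Scarf1 and that of Cd68 in Ly-6B+ over 72 h. With the replicate block the called genes numbered 485 for Ly-6B+ over Ly-6B- (470 without it), where Cd68 changed by -0.85 (adjusted p = 0.000426) and Marco by -1.57 (adjusted p = 0.145), and the block changed no call of a receptor gene in any comparison. The block gave each replicate number 1 effect shared by all 7 groups, so it did not model the pairs of 168 h on their own. Each probe set on its own row, an alternative chosen after seeing the data, gave 1 reversal, Marco at 4 h over bone marrow on probe set 1458297_s_at (-0.07), near the floor. The cause was not tested.

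Counts of called genes moved by over 1.5 times in the 3 comparisons with the fewest calls. Ly-6B- over 72 h had 59, but 37 without the 3 arrays that stood apart, 29 with only the 6 arrays compared, and 42 to 139 with 1 array left out, the highest without 72 h replicate 3. Ly-6B- over resident had 5, but 0 with only the 6 arrays and 2 to 9 with 1 array left out. Macrophages of 72 h over resident had 84, but 46 with only the 6 arrays and 56 to 185 with 1 array left out, the highest without 72 h replicate 3. Fewer arrays in the fit give a less certain spread. The 8 called steps between neighbouring levels of the receptor genes were 8 or 9 in the alternatives in which they were counted. They were not counted with only the 6 arrays compared or with each array left out in turn.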

Other observations

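Replicate number 1 was the lowest of its group in 6 of 7 groups for Cd68 and in 5 of 7 for Marco. Among the genes tested, 3.96% had number 1 lowest in at least 6 groups and 10.4% in at least 5. The labels tie no number to a day or batch, and the source of this pattern was not tested.

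Pf4, a chemokine gene chosen here after its values were seen from the platelet marker list, averaged 611 in bone marrow and 2099.8 at 4 h, then 10170.4 at 18 h and 29694 at 72 h. The Ly-6B+ mean at 168 h was 18810, the Ly-6B- mean 31431, and the resident mean 34141. Its means stand in the same order as those of Marco from bone marrow to 18 h, with Ly-6B+ cells of 168 h between 18 h and 72 h for both. Gp9, another platelet gene, had group means of 6.58 to 30.4. The 5 platelet markers measured, Pf4 and Gp9 among them, summed to 455 to 2661.5 in bone marrow and 32346 to 38332 in resident cells. All 3 arrays were above 80.6 for 3 of these markers in bone marrow, at 4 h and at 18 h, and for 2 in resident cells.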
